A study of Mus musculus with 17 samples.

Results

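Gfi1 and Gfi1b, a pair of closely related transcriptional repressors, were followed through 17 RNA libraries of mouse bone marrow progenitors. They are 2 of the 47643 genes with a row in the count table. They were chosen by earlier results of these same data, in which their RNA moved in opposite directions between leukaemic (AML) and other (Normal) libraries. Their difference between AML and Normal is therefore given as a description, with no test. The cells were cKit+ bone marrow cells from which cells with lymphoid or erythroid surface markers had been gated out by flow cytometry. The AML libraries were 3 of genotype UREΔ/+;Tet2-/- (called compound Tet2 KO here) and 2 of genotype UREΔ/+;Tet2+/- (compound Tet2 het). The Normal libraries were 3 each of URE+/+;Tet2-/- (Tet2 KO), URE+/+;Tet2+/- (Tet2 het), UREΔ/+;Tet2+/+ (URE het) and URE+/+;Tet2+/+ (WT). URE is the upstream regulatory element, an enhancer of Spi1, the gene for the blood cell transcription factor PU.1, and Tet2 encodes a DNA demethylase. Every AML library was a compound mutant and every other library was not, so leukaemia and compound genotype cannot be told apart. The labels describe the controls as matched in age, and gave neither an age nor a sex for single libraries. The labels do not state whether libraries are separate mice, so the p-values measure the spread between these libraries, which may be technical.

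Gfi1 and Gfi1b each carry an N-terminal SNAG domain, which recruits the histone demethylase LSD1 and the corepressor CoREST, and C-terminal zinc fingers that bind DNA with the core letters AATC. In blood formation Gfi1 is used by stem cells, lymphoid precursors and above all granulocyte precursors, while Gfi1b is used by stem cells and by erythroid and megakaryocyte precursors. Each protein is known to repress its own gene and that of its relative.

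The promoters are shown because that mutual repression is known to act through AATC sites, which stand together in the Gfi1b promoter. The sequences are RefSeq's for GRCm38.p6, from 250 bases before to 50 bases after a transcription start, 5′ to 3′ on the minus strand that both genes use, and capitals mark AATC or its reverse complement GATT.
Gfi1b, chr2:28621933-28622232: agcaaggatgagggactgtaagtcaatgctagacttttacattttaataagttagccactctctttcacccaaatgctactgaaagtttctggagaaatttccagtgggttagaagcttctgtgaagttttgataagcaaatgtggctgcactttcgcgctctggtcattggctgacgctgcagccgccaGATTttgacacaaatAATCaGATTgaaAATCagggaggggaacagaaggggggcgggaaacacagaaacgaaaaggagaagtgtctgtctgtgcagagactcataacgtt
Gfi1, chr5:107725756-107726055: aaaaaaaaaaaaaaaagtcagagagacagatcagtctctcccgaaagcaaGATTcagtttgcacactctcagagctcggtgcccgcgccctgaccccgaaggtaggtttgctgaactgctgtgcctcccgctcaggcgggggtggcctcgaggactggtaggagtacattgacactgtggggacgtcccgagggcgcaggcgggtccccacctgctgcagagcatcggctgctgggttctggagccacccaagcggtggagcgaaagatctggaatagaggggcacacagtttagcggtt
The Gfi1b promoter held 4 AATC matches within 31 bases, from 60 to 30 bases before the start. Of 32851 promoters of this length, 10.1% held 4 or more matches and 73.1% held at least 1. The Gfi1 promoter held 1 match, 200 bases before its start, and the window of a second Gfi1 start in the same table, chr5:107724294-107724593, held none. In the gene annotation used here Gfi1 begins further upstream, at 107726036. The match and the whole second window thus lie inside the annotated gene. For Gfi1b the start of the window is the annotated end, 28621982, so the windows of the genes are not alike in place. The GATA factor motif GATAA, searched with its reverse complement TTATC, occurred 1 time in the Gfi1b promoter, 119 bases before the start, in neither Gfi1 window, and in 25.4% of all promoters. GAGGAA (reverse complement TTCCTC), the core of the PU.1 motif, and TGTGGT (reverse complement ACCACA), the core of the Runx1 motif, occurred in none of the 3 windows, against 28.3% and 16.8% of all promoters. These matches describe letters in the windows and nothing about binding in these cells.

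Gene counts per library summed to 21.1 to 38.3 M (median 32.2 M), and levels are given as counts per 1 M counts of the library (CPM) after trimmed-mean (TMM) normalization. Tet2 RNA lay at 80.2 to 86.2 CPM in the Tet2 KO libraries, below the other 9 Normal libraries (92.5 to 176 CPM), and at 112 to 176 CPM in the compound Tet2 KO libraries. Gene-level counts include exons outside a deletion and the URE is not transcribed into Spi1 mRNA, so neither allele is checked by these levels. Kit, the receptor used for the sort, stood at 117 to 170 CPM in AML and 99.9 to 187 CPM in Normal libraries. Of the AML libraries, compound Tet2 het replicate 2 was nearest to the Normal libraries in many progenitor genes. Cd34, a marker of stem and progenitor cells, was at 73.6 CPM in it and at 10.1 CPM in compound Tet2 KO replicate 1, against 0.0650 to 0.545 CPM in the other 3 AML libraries and 59.4 to 145 CPM in Normal libraries. Results that rest on these libraries are therefore given with and without them. They were singled out by their values, and more genes in all were called in AML against Normal without either. Calls gained by leaving them out are therefore descriptions.

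Gfi1 RNA was higher in most leukaemic libraries. Gfi1 (ENSMUSG00000029275.17; GRCm38 chromosome 5, 107716657 to 107726036, minus strand) stood at 64.2, 160.3 and 78.6 CPM in compound Tet2 KO and at 97.6 and 106 CPM in compound Tet2 het. It stood at 43.5, 64.5 and 41.5 CPM in Tet2 KO, 25.5, 39.2 and 34.4 CPM in Tet2 het, 34.7, 55.1 and 49.0 CPM in URE het, and 41.1, 30.5 and 38.3 CPM in WT. In 4 of the 5 AML libraries Gfi1 lay above all 12 Normal libraries; compound Tet2 KO replicate 1 lay below 1 Normal library, Tet2 KO replicate 2. Among 19951 genes, 4.59% had at least 4 AML libraries above every Normal library. The level averaged 101 ± 36.8 CPM in AML (SD, n = 5) and 41.4 ± 10.7 CPM in Normal (n = 12). The genotype means ran from 102 ± 5.97 CPM in compound Tet2 het (n = 2) and 101 ± 51.9 CPM in compound Tet2 KO (n = 3) through 49.8 ± 12.7 CPM in Tet2 KO, 46.3 ± 10.4 CPM in URE het and 36.6 ± 5.51 CPM in WT to 33.0 ± 6.91 CPM in Tet2 het (n = 3 each). Each neighbouring pair in that order differed by less than the larger of its SDs. The fitted log2 fold change of AML against Normal was 1.31 ± 0.20 (SE), or 2.48-fold, and leaving out single libraries moved it between 1.03 and 1.43.

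Gfi1b RNA was low in every library and nearly absent from 4 of the 5 leukaemic ones. Gfi1b (ENSMUSG00000026815.14; GRCm38 chromosome 2, 28609450 to 28621982, minus strand) had 2, 0 and 0 counts in compound Tet2 KO and 3 and 57 counts in compound Tet2 het. It had 40, 45 and 39 counts in Tet2 KO, 27, 35 and 68 in Tet2 het, 67, 49 and 28 in URE het, and 51, 77 and 47 in WT. In CPM these are 0.0845, 0 and 0 in compound Tet2 KO, 0.0975 and 1.21 in compound Tet2 het, 1.53, 1.497 and 1.15 in Tet2 KO, 1.34, 1.04 and 1.95 in Tet2 het, 2.45, 1.63 and 0.808 in URE het, and 1.57, 2.37 and 1.58 in WT. The 4 low AML libraries lay below all 12 Normal libraries, while compound Tet2 het replicate 2 lay above 3 of them. A count of 0 allows up to 3 counts, or 0.0860 and 0.0907 CPM in compound Tet2 KO replicates 2 and 3. In bulk RNA, fewer cells that express Gfi1b and less Gfi1b RNA per cell cannot be told apart.

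Summed over libraries, compound Tet2 KO held 2 Gfi1b counts against 124 in Tet2 KO, a ratio per sequenced count of 0.0159 (exact 95% interval 0.00190 to 0.0586). Against the 144 counts of URE het the ratio was 0.0140 (0.00167 to 0.0513), and against the 175 counts of WT it was 0.0118 (0.00142 to 0.0433). These intervals cover counting error only and not the spread between libraries. They are no test, because Gfi1b was chosen on its AML libraries. Over groups the level averaged 0.278 ± 0.523 CPM in AML (SD, n = 5) and 1.58 ± 0.492 CPM in Normal (n = 12). The fitted log2 fold change of AML against Normal was -3.55 ± 0.66 (SE). It was -4.92 without compound Tet2 het replicate 2, -4.94 without compound Tet2 KO replicate 1 and -6.29 without both, settings in which Gfi1 stood at 1.27, 1.43 and 1.39.

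**Figure D1:**
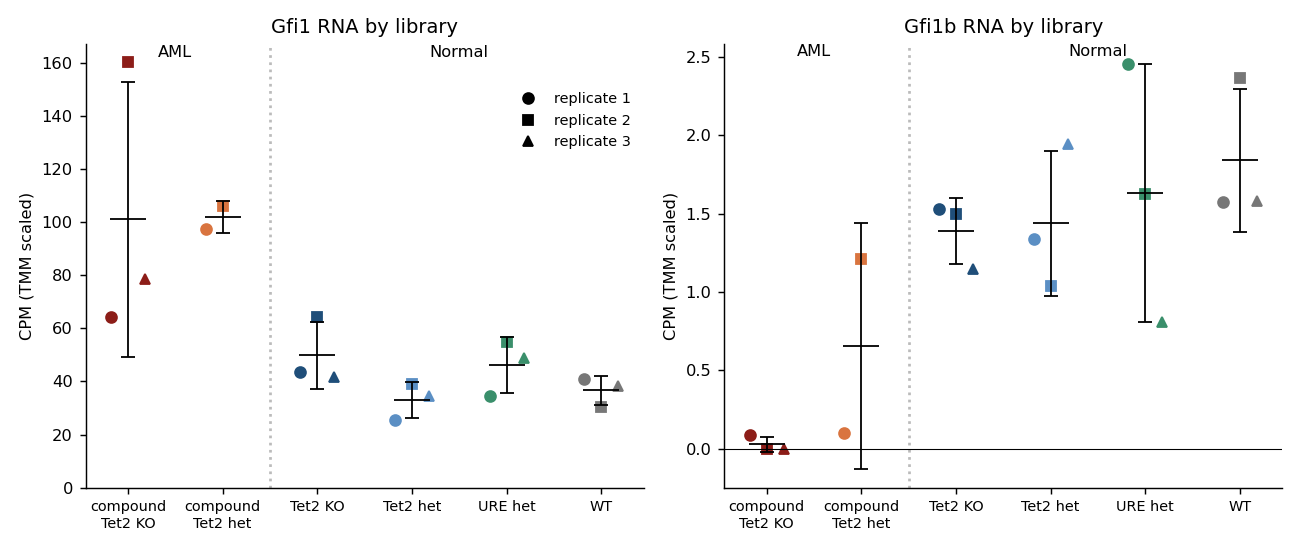
Gfi1 (left) and Gfi1b (right) RNA in CPM by genotype, with 1 symbol per library, a horizontal bar at the mean and whiskers of 1 SD (n = 3, and n = 2 for compound Tet2 het; a whisker may pass below 0). AML genotypes stand left of the dotted line: 4 of 5 AML libraries have Gfi1 above every Normal one and 4 of 5 have Gfi1b below every Normal one, with compound Tet2 het replicate 2 at 1.21 CPM.

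The exceptions to the 2 patterns were different libraries. compound Tet2 KO replicate 1 had the lowest Gfi1 of the AML libraries and a low Gfi1b. compound Tet2 het replicate 2 had the second highest Gfi1 of all libraries and a Gfi1b within the Normal range. Per kilobase of exon (3187 bases for Gfi1, 1830 for Gfi1b), the ratio of the Gfi1 level to the Gfi1b level was 436 in compound Tet2 KO replicate 1, at least 1071 and at least 498 in replicates 2 and 3 (with Gfi1b at 3 counts), and 575 and 50.3 in compound Tet2 het. In the 12 Normal libraries it ran from 7.39 to 34.9, with a median of 15.7. Among 19852 genes ranked by mean CPM per kilobase, Gfi1 stood at percentile 94.8 in AML and 86.3 in Normal, and Gfi1b at percentile 11.9 in AML and 35.3 in Normal.

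Against single genotypes the fitted folds, which share libraries with one another, were as follows. In compound Tet2 KO against Tet2 KO, Gfi1 was at 1.02 ± 0.32 and Gfi1b at -5.69 ± 1.04 (log2 fold change ± SE). In compound Tet2 het against Tet2 het, Gfi1 was at 1.62 ± 0.35 and Gfi1b at -1.11 ± 0.83. Against URE het, compound Tet2 KO gave 1.13 ± 0.32 for Gfi1 and -5.92 ± 1.04 for Gfi1b, and compound Tet2 het gave 1.14 ± 0.35 and -1.28 ± 0.83. The Gfi1 folds thus lay between 1.02 and 1.62 in all 4 comparisons, while the Gfi1b folds of compound Tet2 het, which average 1 low and 1 Normal-like library, were the nearer to 0.

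Of the 27 expressed genes within 1 Mb of Gfi1 (mean of at least 1 CPM in Normal), the median gene stood in the AML libraries at 92.8% to 124.5% of its Normal median, and its quartiles ran from 73.8% to 98.7% (lower) and from 113.5% to 163.4% (upper), so single neighbours moved in both directions. Gfi1 stood at 160% to 399%, above the upper quartile of its neighbours in each AML library. For the 20 expressed genes within 1 Mb of Gfi1b the medians were 77.3% to 106% in AML, the lower quartiles 49.2% to 82.7% and the upper quartiles 112.9% to 194.4%. Gfi1b stood at 0% to 6.29% in 4 AML libraries, below those lower quartiles, and at 78.0% in compound Tet2 het replicate 2, beside a neighbour median of 77.3%. The medians of the same neighbours in single Normal libraries ran from 81.7% to 114% around Gfi1 and from 90.7% to 133.5% around Gfi1b.

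The single mutants had no detectable effect on either gene beyond the spread between libraries. In URE het against WT, the log2 fold change was 0.34 ± 0.31 for Gfi1 (95% interval -0.33 to 1.00) and -0.18 ± 0.71 for Gfi1b (-1.69 to 1.33). In Tet2 KO against WT it was 0.44 ± 0.31 for Gfi1 (-0.22 to 1.11) and -0.41 ± 0.71 for Gfi1b (-1.92 to 1.11). In Tet2 het against WT it was -0.15 ± 0.31 for Gfi1 (-0.82 to 0.52) and -0.35 ± 0.71 for Gfi1b (-1.87 to 1.17). All 6 had an adjusted p of 1 in edgeR's quasi-likelihood test.

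Loss of the second Tet2 copy came with the largest Gfi1 difference of these comparisons, 0.59 ± 0.31 in Tet2 KO against Tet2 het (-0.08 to 1.26), which did not pass edgeR's quasi-likelihood test (unadjusted p = 0.0787, adjusted p = 1). All 3 Tet2 KO libraries (41.5 to 64.5 CPM) lay above all 3 Tet2 het libraries (25.5 to 39.2 CPM), as for 4.6% of 19951 genes. Gfi1b stood there at -0.05 ± 0.71 (-1.58 to 1.47; adjusted p = 1). At an adjusted p under 0.05, 0 of 19951 genes (0%) passed in each of these 4 comparisons in edgeR. At an unadjusted p under 0.05, 3.77% of genes passed in URE het against WT, 2.93% in Tet2 het against WT, 2.57% in Tet2 KO against WT and 2.29% in Tet2 KO against Tet2 het. DESeq2 called 7, 1, 12 and 14 genes and limma voom 79, 0, 86 and 5 in these comparisons, neither member among them.

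Within the leukaemias, neither member passed the test between the genotypes. Gfi1 in compound Tet2 KO against compound Tet2 het was at -0.01 ± 0.35 (-0.76 to 0.73; edgeR adjusted p = 0.995). Gfi1b was at -4.64 ± 1.08 (-6.94 to -2.34; unadjusted p = 0.000647, adjusted p = 0.18), in a comparison where 2 of 19951 genes passed after adjustment (0.0100%) and 11.7% did before it. The 2 Gfi1b counts of compound Tet2 KO compare with 60 in compound Tet2 het, a ratio of 0.0283 (exact 95% interval 0.00335 to 0.107), and 57 of those 60 counts came from replicate 2. Without that library the log2 difference was -1.90 (adjusted p = 0.564), and without the other compound Tet2 het library, replicate 1, it was -5.50 (adjusted p = 0.00522). Without compound Tet2 KO replicate 1 it was -7.43 (adjusted p = 0.0799), and without replicate 2 or 3 of that genotype it was -3.99 and -4.01. DESeq2 called it (-4.82, adjusted p = 0.0136), as 1 of 335 genes. Within title numbers 8 to 17, where compound Tet2 het has only replicate 2 and both compound Tet2 KO libraries have 0 Gfi1b counts, it passed as 1 of 4861 genes (adjusted p = 0.00292), with the lone library assumed to vary like the other groups. The genes called in this comparison numbered 0 with limma voom, 14 with a title range term and 139 without compound Tet2 het replicate 2 and compound Tet2 KO replicate 1.

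Numbers in the library titles ran from 1 to 17, and each of the ranges 1 to 7 and 8 to 17 held every genotype; the labels do not call these ranges a batch. Within numbers 8 to 17 the AML to Normal log2 fold change was 1.34 for Gfi1 and -4.40 for Gfi1b, and within numbers 1 to 7 it was 1.19 and -4.24. With the range as a term over all libraries it was 1.30 and -3.52. Gfi1 in compound Tet2 KO replicate 1 (64.2 CPM, title number 6) lay above the Normal libraries of numbers 1 to 7 (25.5 to 43.5 CPM). Tet2 KO replicate 2, the 1 Normal library above it, has title number 13. Among the 12 Normal libraries, Gfi1 was higher in the later range by 0.37 ± 0.13 (34.4 to 64.5 CPM later, 25.5 to 43.5 CPM earlier; edgeR adjusted p = 0.045), where 36.4% of 18282 genes passed. This call ended in 9 of the 12 single omissions (0.30 to 0.46 over all 12, adjusted p up to 0.161). The 9 were WT replicate 2, all 3 URE het and all 3 Tet2 het libraries, and Tet2 KO replicates 1 and 2. Gfi1b was at -0.37 ± 0.29 (0.808 to 1.95 CPM later, 1.34 to 2.45 CPM earlier; adjusted p = 0.342).

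Across the 12 Normal libraries no relation between the members was detectable. Pearson's r of their log2 CPM was -0.323 (permutation p = 0.3055) and Spearman's rho -0.385 (permutation p = 0.218), the only pair of genes compared. Without the 2 libraries farthest from the Gfi1 median, Tet2 KO replicate 2 and Tet2 het replicate 1, r was -0.607 (permutation p = 0.0624, n = 10). Within the later range r was -0.1045 (n = 7, permutation p = 0.826); the earlier range, with 5 Normal libraries, was too small for a test.

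The genes whose levels followed each member most closely over the 12 Normal libraries were described by Spearman's rho. For Gfi1, among 9894 genes, they were Hsdl2 (0.98), a peroxisomal dehydrogenase-like protein, Agps (0.95), an enzyme of ether lipid synthesis, Fam120a (0.94), Sar1b (0.93), a GTPase of vesicle transport, and Zfp993 (0.93), a zinc finger protein. For Gfi1b, among 12294 genes, they were Pts (0.85), an enzyme of tetrahydrobiopterin synthesis, Rab11a (0.85), a GTPase of endosome recycling, S100a6 (0.85), a calcium-binding protein, Slc26a11 (0.83), an anion transporter, and Ugcg (0.81), an enzyme of glycolipid synthesis. These libraries share the title ranges above, and the highest of so many correlations over 12 points are high by choice. None of the likest genes reached the 4 of 5 AML libraries of its member. In 3 of 5 AML libraries Zfp993 exceeded every Normal one, and the other 4 likest genes of Gfi1 did so in 0 to 2. The 5 likest genes of Gfi1b lay below all Normal libraries in 0 to 3, with Rab11a at 3. The share of all genes that reach 3 of 5 in either direction was not counted.

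Beside its gene row, Gfi1 has 6 rows and Gfi1b 3 rows whose names add enh to the gene identifier; their coordinates and meaning are not given in the sources used here, and whether they share reads with the gene rows is not known. The 3 Gfi1b rows held 13, 36 and 18 counts in total over all 17 libraries and did not pass the filter on low counts. The 6 Gfi1 rows passed it and stood at log2 fold changes of 1.67 to 2.04 in AML against Normal, where 9.73% of 22241 such rows were higher by 2-fold or more and the median was -0.003. The first row (enh) stood at 3.42, 28.3 and 10.9 CPM in compound Tet2 KO and at 8.87 and 11.1 CPM in compound Tet2 het, against 0.769 to 7.07 CPM in Normal libraries. It followed the gene row, with 4 of 5 AML libraries above all Normal ones and compound Tet2 KO replicate 1 the exception. The share of all enh rows with 4 such libraries was not counted.

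The other 5 rows (enh.1 to enh.5) divided the AML libraries differently from the gene row. Their summed level was 5.11, 14.9 and 20.2 CPM in compound Tet2 KO and 48.2 and 5.07 CPM in compound Tet2 het, against 3.32 to 8.48 CPM in Normal libraries. compound Tet2 het replicate 2, with the second highest Gfi1 gene row, thus had these rows within the Normal range, as did compound Tet2 KO replicate 1. The row enh.3 was at 25.7 CPM in compound Tet2 het replicate 1, against 1.45 to 3.78 CPM in Normal libraries. Summed over all 6, the enh rows came to 13.3%, 26.96% and 39.5% of the gene row in compound Tet2 KO and to 58.5% and 15.2% in compound Tet2 het, against 11.1% to 31.7% in Normal libraries. The first row also moved with the title range among Normal libraries (1.79 ± 0.25 higher later; 2.88 to 7.07 CPM later, 0.769 to 1.42 CPM earlier; edgeR adjusted p = 0.000107, with 25.8% of 37912 gene and enh rows passing), and the other 5 rows did not pass (adjusted p = 0.153 to 0.688). In the first row compound Tet2 KO replicate 1, of the earlier range, stood at 3.42 CPM, above the earlier Normal libraries. The part of the title range in the AML difference of these rows was not tested.

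**Figure D2:**
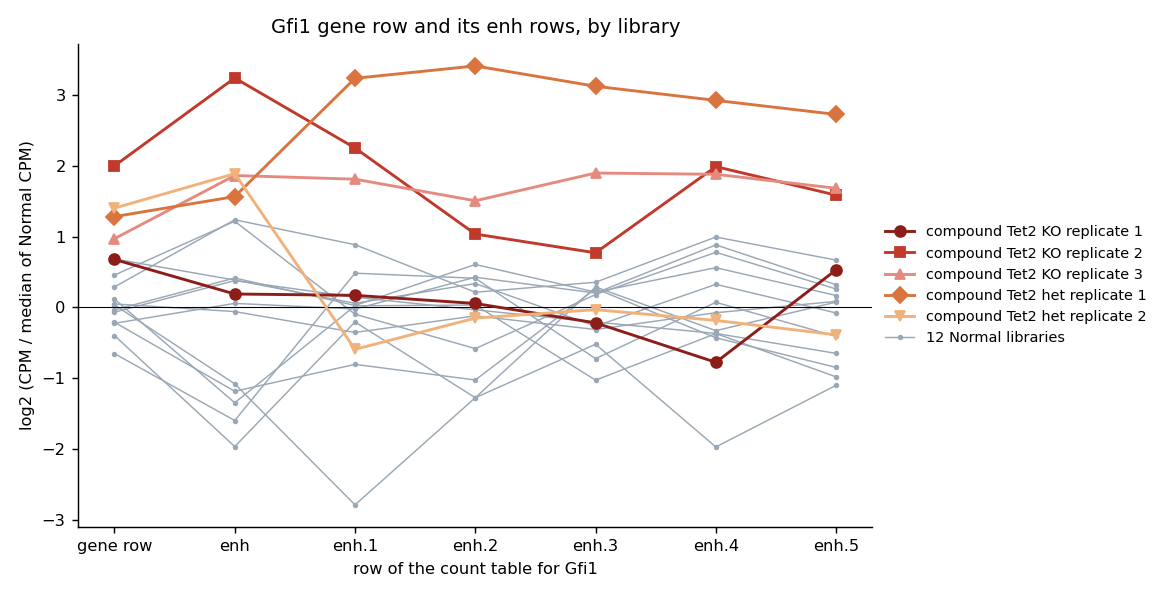
Level of the Gfi1 gene row and of its 6 enh rows in each library, as the log2 of its CPM over the median CPM of the 12 Normal libraries (y axis; row names on the x axis). The 5 AML libraries are coloured and the 12 Normal libraries grey: all 5 AML libraries lie above 0 in the gene row, but in enh.1 to enh.5 compound Tet2 het replicate 2 and compound Tet2 KO replicate 1 lie among the Normal libraries.

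An antisense transcript, A430072P03Rik (GRCm38 chromosome 5, 107725157 to 107728801, plus strand), overlaps the 5′ end of Gfi1 by 880 bases. It stood at 3.80, 2.49 and 1.66 CPM in compound Tet2 KO and at 2.93 and 1.55 CPM in compound Tet2 het, against 0.400 to 1.33 CPM in Normal libraries, with no overlap; 0.827% of 19951 genes had all 5 AML libraries above every Normal one. The strand setting of the counting is not given in the sources used here, so reads of Gfi1 and of this transcript cannot be told apart where they overlap.

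None of the corepressor genes passed the test. Of 17 genes for LSD1, CoREST and other partners of the SNAG domain, 16 were tested and 0 rose or fell in AML against Normal, where 2188 of 19951 genes (11%) passed in edgeR, 1385 higher (6.94%) and 803 lower (4.02%), so that 63.3% of the calls were higher (49.98% with DESeq2); at an unadjusted p under 0.05, 26.3% passed. Their median log2 fold change was 0.15, against 0.05 for all genes. DESeq2 and limma voom called 0 of them as well, and 5 were called higher within title numbers 8 to 17. Without compound Tet2 het replicate 2, 2 were called lower, and without it and compound Tet2 KO replicate 1, 2 were called higher and 2 lower. Kdm1a, the gene for LSD1, stood at 51.4 ± 10.1 CPM in AML (n = 5) and 49.0 ± 5.12 CPM in Normal (n = 12; log2 fold change 0.09 ± 0.12, adjusted p = 0.686). Rcor1, the gene for CoREST, was at 0.25 ± 0.14 (adjusted p = 0.288). The deacetylase genes Hdac1 and Hdac2 were at 0.10 ± 0.21 and -0.003 ± 0.12 (adjusted p = 0.801 and 0.992). Of 7 other genes for SNAG proteins, such as Snai1 and Insm1, only 2 had enough counts to be tested and neither passed.

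Of 27 genes reported as repressed by Gfi1 or Gfi1b in other work, 3 fell and 0 rose, with a median of -0.11. Over all genes 11% passed and 4.02% fell. The list's share of all calls is thus near that of all genes and its share of falls, which rests on 3 genes, is above it. Il7r, the receptor of interleukin 7, stood at 0.732 ± 0.973 CPM in AML and 5.01 ± 2.56 CPM in Normal (log2 fold change -2.68 ± 0.60, adjusted p = 0.0117) and passed in all 17 single omissions. Gata3, a T lymphoid factor, was at -2.12 ± 0.60 (adjusted p = 0.0348), a call that ended in 7 of 17 omissions. Meis1, a homeobox partner of stem cells, was at -2.92 ± 0.89 (adjusted p = 0.0485), a call that held in 2 of 17 omissions, those of compound Tet2 KO replicate 1 and compound Tet2 het replicate 2. Irf8, a monocyte factor, stood at 4.61, 68.0 and 101 CPM in compound Tet2 KO and at 32.4 and 41.6 CPM in compound Tet2 het, against 19.9 to 44.1 CPM in Normal libraries (0.51 ± 0.40, adjusted p = 0.462), and passed as higher without compound Tet2 KO replicate 1 (0.78, adjusted p = 0.00619). The list's falls ran from 1 without compound Tet2 het replicate 1 to 7 within title numbers 8 to 17, where 5 members were called higher, and to 9 without compound Tet2 KO replicate 1 and compound Tet2 het replicate 2.

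Among 17 factors known to act upstream of the pair, 1 rose and 1 fell, with a median of -0.38, a share of calls near the 11% of all genes. Cebpa, the granulocyte lineage factor, stood at 29.2, 102 and 70.5 CPM in compound Tet2 KO and at 110 and 13.4 CPM in compound Tet2 het, against 12.1 to 32.6 CPM in Normal libraries. It exceeded every Normal library in 3 of 5 AML libraries (1.70 ± 0.37, edgeR adjusted p = 0.0101), and the call ended without compound Tet2 het replicate 1 (0.59). The share of all genes with 3 such libraries was not counted. Nfya, a subunit of the NF-Y factor known at the human GFI1B promoter, was at -0.67 ± 0.19 (adjusted p = 0.0394), a call that ended in 10 of 17 omissions.

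The GATA factors, known regulators of Gfi1b, were low in the same 4 AML libraries as Gfi1b and did not pass the test over all libraries. Gata1, the erythroid and megakaryocyte factor, stood at 0.296, 0 and 0 CPM in compound Tet2 KO and at 0 and 0.743 CPM in compound Tet2 het, against 0.420 to 1.63 CPM in Normal libraries (-2.57 ± 0.81, adjusted p = 0.0552). Gata2, a stem cell and mast cell factor, stood at 0.930, 0.172 and 0.998 CPM in compound Tet2 KO and at 0 and 11.8 CPM in compound Tet2 het, against 3.002 to 9.32 CPM (-1.57 ± 0.72, adjusted p = 0.181). Without compound Tet2 het replicate 2, which leaves 1 library of that genotype, Gata1 was at -5.86 and Gata2 at -6.83. That library had the highest Gata1 and Gata2 of the AML libraries, so a larger fall without it was set by the choice. Gata1 passed without compound Tet2 KO replicate 1, with DESeq2, with limma voom and with a title range term. Spi1 stood at 98.6, 7.83 and 12.2 CPM in compound Tet2 KO and at 21.6 and 34.9 CPM in compound Tet2 het, against 45.3 to 137 CPM (-1.25 ± 0.52, adjusted p = 0.135), and passed without compound Tet2 KO replicate 1 (-2.24, adjusted p = 0.00094), with DESeq2, with limma voom and with a title range term. Normal Spi1 stood at 90.9 to 137 CPM in title numbers 1 to 7 and at 45.3 to 63.1 CPM in numbers 8 to 17. Of the AML libraries, replicate 1 of each compound genotype is in the earlier range. Of the 17 upstream factors, 1 was called lower over all libraries and 6 were called lower without compound Tet2 KO replicate 1, 5 without compound Tet2 het replicate 2 and 7 without both.

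Gfi1 is the factor of granulocyte precursors, and granulocyte genes moved in both directions. Of 18 granulocyte genes tested (of 19), 2 rose and 5 fell, against 6.94% and 4.02% of all genes, with a median of -0.55. The 2 that rose were Cebpa and Ctsg, a primary granule protease (929 ± 350 CPM in AML, 425 ± 191 CPM in Normal; 0.99 ± 0.27, adjusted p = 0.031). The Ctsg call ended in 6 of 17 omissions. Elane and Mpo, primary granule enzymes, were at 0.91 ± 0.33 and 0.31 ± 0.24 and did not pass (adjusted p = 0.0946 and 0.451); Elane passed without compound Tet2 KO replicate 1 or compound Tet2 het replicate 2 (adjusted p = 0.0323 and 0.0325). Those that fell were S100a8 (-1.42 ± 0.32, adjusted p = 0.0123), S100a9, Camp, Ltf and Mmp8, which are made later in granulocyte maturation. Other later genes of the list did not pass: Lcn2 (-0.15), Ngp (-0.88), Retnlg (-0.13) and Cxcr2 (-0.57; edgeR adjusted p = 0.295 to 0.927 for these). S100a8 passed in all 17 omissions, while the calls of S100a9, Camp, Ltf and Mmp8 ended in 2, 4, 5 and 14 of them. S100a8 and S100a9 resemble each other, so reads may be shared between them. Without compound Tet2 het replicate 1, 0 members were called higher and 1 lower. The summed level of the list was 20900 to 49500 CPM in AML and 35700 to 101000 CPM in Normal libraries.

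Gfi1b is used by erythroid and megakaryocyte precursors. Of 20 erythroid genes 2 fell and 0 rose, with a median of -1.79. Over all genes 11% passed and 4.02% fell. The list's share of all calls is thus near that of all genes and its share of falls, which rests on 2 genes, is above it. The falls numbered 9 with DESeq2, 4 with limma voom and 7 with a title range term. Car2, a carbonic anhydrase, stood at 4.82, 0.774 and 0.574 CPM in compound Tet2 KO and at 0.553 and 33.4 CPM in compound Tet2 het, against 28.8 to 61.5 CPM in Normal libraries (-2.77 ± 0.70, adjusted p = 0.0214). Aqp1, a water channel of red cells, was at -2.84 ± 0.78 (adjusted p = 0.0308), a call that ended without compound Tet2 het replicate 1 (adjusted p = 0.136) or URE het replicate 2 (0.0501). The erythroid calls numbered 7 without compound Tet2 het replicate 2, 12 without compound Tet2 KO replicate 1, 15 without both, and 1 without compound Tet2 het replicate 1. The gate removed cells with erythroid surface markers, and the summed erythroid level was 65.5 to 183 CPM in AML and 134 to 294 CPM in Normal libraries. The part of these levels in the Gfi1b difference was not tested.

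Of 14 megakaryocyte and platelet genes tested (of 18), 5 fell and 0 rose, with a median of -1.44. Over all genes 11% passed and 4.02% fell. F2r, the thrombin receptor, stood at 2.16, 0.860 and 0.695 CPM in compound Tet2 KO and at 0.325 and 11.04 CPM in compound Tet2 het, against 10.3 to 30.6 CPM (-2.90 ± 0.59, adjusted p = 0.0079), and passed in all 17 omissions. Gp9, a platelet surface glycoprotein (-2.78 ± 0.75, adjusted p = 0.0277), Rab27b, a granule GTPase (-3.07 ± 0.88, adjusted p = 0.0378), and Itgb3, a platelet integrin chain (-1.70 ± 0.52, adjusted p = 0.0485), also fell. Those 3 calls held in 15, 5 and 3 of 17 omissions, and the list had 1 call without compound Tet2 het replicate 1 and 10 without compound Tet2 het replicate 2 and compound Tet2 KO replicate 1. The summed level was 61.8 to 124 CPM in AML and 126 to 198 CPM in Normal libraries.

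Markers of other cells the sort could hold moved as well. Over all genes 11% passed, 6.94% higher and 4.02% lower. Of 11 mast cell, basophil and eosinophil genes tested (of 13), 7 fell and 0 rose, led by Epx, the eosinophil peroxidase (-4.55 ± 0.88, adjusted p = 0.00585); their sum was 21.9 to 161 CPM in AML and 167 to 570 CPM in Normal libraries. Of 12 stem and progenitor genes 5 fell, among them Procr, Hlf, Mecom and Meis1, and of 10 B cell genes 7 fell, among them Cd22. Without compound Tet2 het replicate 1 these falls numbered 3 for the mast cell, basophil and eosinophil list, 1 for the stem and progenitor list and 3 for the B cell list. Cd22 ran from 0.0287 to 3.42 CPM in AML, against 0.696 to 5.32 CPM in Normal libraries. It was also called lower in compound Tet2 KO against compound Tet2 het. Of 12 monocyte and dendritic genes 1 rose (F13a1) and 3 fell (Ccr2, Siglech and Cd209a), of 8 T and NK cell genes tested 0 passed, and of 9 stromal and endothelial genes tested 2 rose and 2 fell. Their part in the Gfi1 and Gfi1b differences was not tested.

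**Figure D3:**
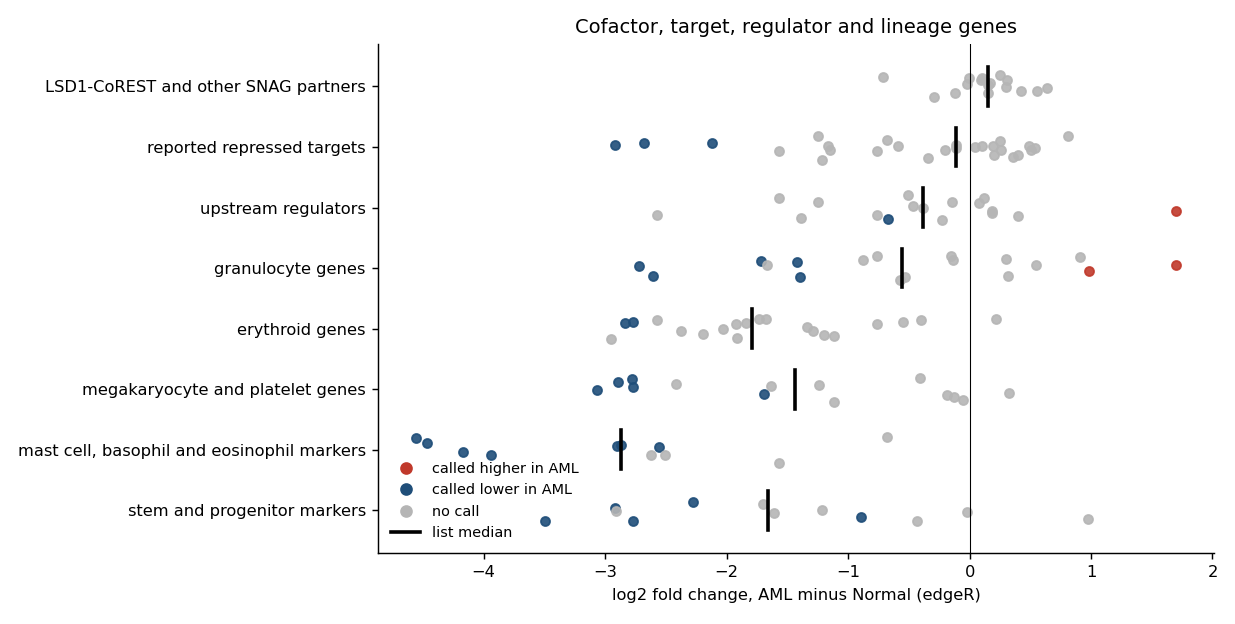
Log2 fold change of AML against Normal (x axis, edgeR) for the tested genes of 8 lists, with 1 point per gene and a black bar at the list median; red and blue points passed an adjusted p of 0.05 as higher or lower in AML. The 16 partner genes lie around 0, while the medians of the erythroid, megakaryocyte and mast cell lists are at -1.79, -1.44 and -2.87.

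The library pattern of Gfi1b, with 4 AML libraries below every Normal library and compound Tet2 het replicate 2 not below them, was shared by 595 of 19951 genes (2.98%). It was held by 8 of 12 stem and progenitor genes (among them Cd34, Procr, Mecom, Meis1, Slamf1, Fgd5 and Hoxa9), 5 of 14 megakaryocyte genes (among them Itga2b, Pf4, Rab27b and F2r) and 5 of 11 mast cell genes (Cpa3, Gata2, Hdc, Epx and Prg2). It was held by 5 of 27 reported targets, 3 of 20 erythroid genes (Gata1, Zfpm1 and Car2), 1 of 16 partners (Rcor2) and 0 of 18 granulocyte genes. In compound Tet2 het replicate 2, Gata2 (11.8 CPM) and Itga2b (14.8 CPM) lay above every Normal library, and Meis1 (35.0 CPM) lay inside the Normal range. The pattern was taken from Gfi1b itself, so these counts are descriptions. Tal1, another factor of this network, did not share it: it was at 8.83 CPM in compound Tet2 KO replicate 1 and 13.9 CPM in compound Tet2 het replicate 2, both inside the Normal range of 7.89 to 18.3 CPM, and at 0.0650 to 0.143 CPM in the other 3 AML libraries.

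**Figure D4:**
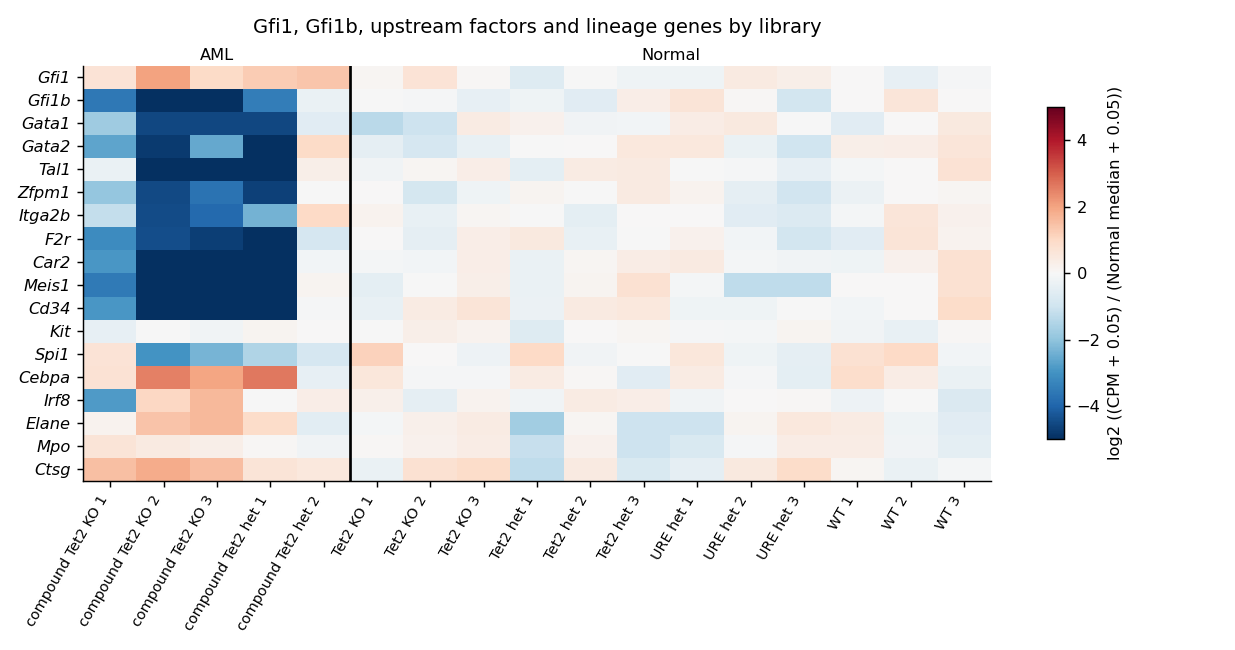
Level of Gfi1, Gfi1b and 16 regulator and lineage genes in each library (columns, AML left of the line) as the log2 of CPM over the median of the Normal libraries, each with 0.05 CPM added; colours end at -5 and 5. In compound Tet2 het replicate 2 the genes from Gata1 to Cd34 lie within the Normal range or, for Gata2 and Itga2b, above it; in compound Tet2 KO replicate 2, replicate 3 and compound Tet2 het replicate 1 they are low together.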

How the data were processed

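Polyadenylated RNA was measured in 17 libraries. Per the labels' protocols, RNA of sorted cells was purified on small columns and libraries were made by a low-input Illumina procedure. The values are raw counts per gene or enh row as deposited by the authors, with no normalization. Reads were aligned with STAR to GRCm38, per the submitters' processing notes; the version, counting tool, annotation and strand setting are not given in the sources used here. Identifiers were matched to symbols through GENCODE vM21 (47224 of 47643 without version, 39106 with it), and promoter sequences are RefSeq's for GRCm38.p6.

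Genes that passed filterByExpr (minimum count 10, minimum total 15) were tested across all genes with edgeR 4.0.16 in R 4.3.3 (TMM, robust quasi-likelihood F test, two-sided, 1 mean per genotype, Benjamini-Hochberg at 0.05). AML against Normal set the mean of 2 genotypes against that of 4. SE is the log2 fold change over the square root of F. Permutations numbered 100000 and used log2 CPM with 0.5 counts added. The fit was checked on simulated counts with known changes. These had a single spread for all genes, and genes of higher counts were changed alike in all AML libraries. The check therefore does not cover counts as low as those of Gfi1b or AML libraries that differ among themselves. The members and all 13 lists were chosen with earlier results of these data known. Named genes were the members, fixed regulators, up to 6 passing members of a list by smallest p, and the 5 likest genes per member; genes whose names mark them as predicted, clone-named, immunoglobulin or Y-linked were left out of the last. Tal1, Cd34, Itga2b, Zfpm1, Rcor2 and the other genes sharing the pattern of Gfi1b were named after their values were seen. So were Lcn2, Ngp, Retnlg and Cxcr2. Alternatives were DESeq2 1.42.0, its size factors, limma 3.58.1 voom, no filter, a title range term, library sizes with enh rows, the compared groups alone and omissions of single libraries; fits within title ranges and without 2 libraries were added after the data were seen. A gene withheld from the text is counted in its lists and not reported here.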

Additional observations from a re-analysis of the deposited data

Results flagged for a closer look

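Among the 5 AML libraries, 9 measures of the members were checked for a library far from the others. Chance flags about 1 in 20 groups drawn from 1 normal distribution. CPM of 2 genotypes, with Gfi1b near 0 counts, need not follow it, so that rate may not hold here. Gfi1b in compound Tet2 het replicate 2, at 1.21 CPM, lay far above the other 4 AML libraries, which ran from 0 to 0.0975 CPM; the gap was 0.919 of the whole range, against a critical value of 0.71. The Gfi1 row enh.2 in compound Tet2 het replicate 1, at 4.75 CPM, lay far above the other 4, at 0.403 to 1.27 CPM, with a gap of 0.800 of the range.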

How the results depend on the processing

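Neither member passed in any comparison among Normal genotypes, nor Gfi1 within the leukaemias, under any alternative run; some of these values changed sign. Gfi1b in compound Tet2 KO against compound Tet2 het passed with DESeq2 (-4.82, adjusted p = 0.0136) and within title numbers 8 to 17 (fitted value -8.38 against libraries at 0). It ran from -7.43 to -1.90 over single omissions and passed in 1 of them, without compound Tet2 het replicate 1, which leaves 1 library of that genotype. The fit of the 2 groups alone dropped the gene. The Gfi1b fold of AML against Normal was -6.29 without compound Tet2 het replicate 2 and compound Tet2 KO replicate 1. The count of genes called in AML against Normal, 2188, was 3664 with a title range term, 4303 within title numbers 8 to 17, 5552 without those 2 libraries, and 845 to 3998 over single omissions (845 without compound Tet2 het replicate 1, 1229 and 1291 without compound Tet2 KO replicates 2 and 3, 3807 without compound Tet2 het replicate 2 and 3998 without compound Tet2 KO replicate 1). Of these calls 63.3% were higher in AML, against 49.98% with DESeq2, 50.9% with limma voom and 45.1% without the 2 libraries. The Gfi1 difference between title ranges was 0.30 to 0.46 over omissions. The correlation of the members was -0.470 to -0.201 over single omissions, another prior count and plain CPM (permutation p = 0.124 to 0.557), and -0.607 and -0.1045 without the 2 libraries farthest from the Gfi1 median and within the later title range. At most 77 counts per library limit Gfi1b. The causes of these shifts were not tested. No paired analysis was possible because the labels give no replicate numbers shared between genotypes.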
